A study of Mus musculus with 12 samples.

Results

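The 10 genes described here, Ddit3, Atf4, Atf5, Trib3, Chac1, Asns, Sesn2, Ddit4, Nupr1 and Hspa5, belong to the integrated stress response and to the endoplasmic reticulum stress response joined to it. They were chosen by name, and each has a row in the table of 26190 genes. Their RNA was measured by bulk RNA-seq in whole telencephalons, cortical and basal ganglia primordia together, of wild-type (WT) C57BL/6J mouse embryos. The 4 groups were females at embryonic day 14.5 (E14.5), males at E14.5, females at E11.5 and males at E11.5, with 3 embryos in each and no treatment or transgene. Sex had been determined by PCR on tail DNA, and at E14.5 also by the shape of the gonads. By the study's sample list, the female and the male with the same replicate number at E11.5 had the same mother, a different one for each number. The study's text instead gives 2 litters for the E11.5 embryos, and the list was followed here. At E14.5 replicates 1 and 2 of both sexes came from 1 mother and replicate 3 from another. The libraries of the 4 groups carry 4 different prefixes in their sequence IDs, so whatever goes with the prefix and the group cannot be told apart.

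In the integrated stress response, kinases that sense viral RNA, lack of heme, lack of amino acids or unfolded proteins in the endoplasmic reticulum phosphorylate the translation initiation factor eIF2. This lowers general translation and raises the translation of a few mRNAs with upstream open reading frames, Atf4 and Atf5 among them. Atf4 then induces genes of amino acid supply, of feedback and, when stress lasts, of cell death. In the developing cortex the pathway is known to take part in the balance between progenitor division and neurogenesis. Because Atf4 and Atf5 are set largely at translation, RNA levels give only a part of their activity.

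The gene counts of a library summed to 22727782 to 28355361 in E14.5 females, 17551763 to 21489997 in E14.5 males, 21284326 to 22635518 in E11.5 females and 23013950 to 25255006 in E11.5 males. All 10 listed radial glia markers and all 10 listed neuronal markers were detected in every group, as were all 9 markers of the ventral telencephalon. The summed level of the neuronal markers was 6004 to 7793 CPM (counts scaled to a common library total after TMM normalization) at E14.5 and 1966 to 2367 CPM at E11.5. That of the radial glia markers was 2434 to 2851 CPM at E14.5 and 3472 to 3684 CPM at E11.5, and that of erythroid markers 861 to 1214 CPM at E14.5 and 3749 to 6631 CPM at E11.5. Of these markers 10 of 10 neuronal genes were called higher at E14.5, 6 of 10 radial glia genes were called lower and 2 higher, and 7 of 9 tested erythroid genes were called lower and 1 higher. Choroid plexus markers summed to 243 to 686 CPM at E14.5 and 70.0 to 79.7 CPM at E11.5, with 5 of 6 tested genes higher and 1 lower. Mesenchyme and pericyte markers summed to 600.1 to 864 CPM at E14.5 and 993 to 1266 CPM at E11.5, with 7 of 9 genes lower and 2 higher. These sums did not overlap between the ages, and their part in the differences between the ages below was not tested. In bulk tissue, fewer cells of a type and less RNA per cell cannot be told apart.

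The response is known to reach several of these genes through short elements in their promoters. Atf4 acts with C/EBP partners at CARE, the C/EBP-ATF response element, searched here as TGATGNAA, and Atf6 acts with NF-Y at ERSE, the endoplasmic reticulum stress response element, searched as CCAAT, 9 bases and CCACG. In the 250 bases before the transcription start, on both strands, 1134 of 32851 RefSeq promoters of the mouse genome (3.45%) held CARE and 37 (0.11%) held ERSE. All 10 genes were found in the promoter table, in 11 records because Atf5 has a pair of starts. CARE was found in Asns, Chac1 and Nupr1, and ERSE in Hspa5. The 4 windows are shown 5′ to 3′ on the strand of the gene, with the match in capitals and 20 bases on each side where the 250 bases reach that far (GRCm38.p6).
Hspa5: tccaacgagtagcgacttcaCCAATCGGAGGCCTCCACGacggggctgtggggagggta
Chac1: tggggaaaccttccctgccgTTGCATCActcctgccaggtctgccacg
Asns: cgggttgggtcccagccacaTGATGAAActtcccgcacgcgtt
Nupr1: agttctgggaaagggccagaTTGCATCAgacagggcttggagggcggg
The Hspa5 window lies at chr2:34772005-34772063 on the plus strand, with the match from -65 to -47 relative to the start. The Chac1 window is chr2:119351029-119351076 on the plus strand, with the match from -193 to -186, and the Asns window is chr6:7693210-7693252 on the minus strand, with the match from -23 to -16. The Nupr1 window is chr7:126625553-126625600 on the minus strand, with the match from -110 to -103. In Chac1 and Nupr1 the element lies on the other strand, so the capitals show its reverse complement. The other 6 genes hold neither run of letters in these 250 bases, and such a match does not show that a factor binds.

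The levels of the 10 genes differed widely. Per length, as FPKM (fragments scaled by transcript length and library total), Hspa5 was the highest at both ages, with means of 129 at E14.5 and 237.8 at E11.5 (n = 6 libraries per age). Hspa5 encodes BiP, the main Hsp70 chaperone of the endoplasmic reticulum. Next came Atf4, with 69.8 FPKM at E14.5 and 91.1 FPKM at E11.5, and Ddit4, with 40.5 FPKM at E14.5 and 31.9 FPKM at E11.5. Among the genes tested Atf4 stood at percentile 95.2 at E14.5 and 95.9 at E11.5. Asns (12.7 FPKM at E14.5 and 16.7 FPKM at E11.5), Atf5 (9.43 FPKM at E14.5 and 10.02 FPKM at E11.5) and Ddit3 (6.57 FPKM at E14.5 and 4.67 FPKM at E11.5) held the middle. Sesn2 averaged 2.43 FPKM at E14.5 and 4.68 FPKM at E11.5. Nupr1, Chac1 and Trib3 were near the lower end of the genes tested, with 1.13, 0.910 and 0.122 FPKM at E14.5 and 0.592, 0.376 and 0.588 FPKM at E11.5. Of neighbours in this order, Nupr1 and Chac1 overlapped between libraries at E14.5, and Sesn2 and Ddit3 as well as Nupr1, Trib3 and Chac1 overlapped at E11.5.

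**Figure D1:**
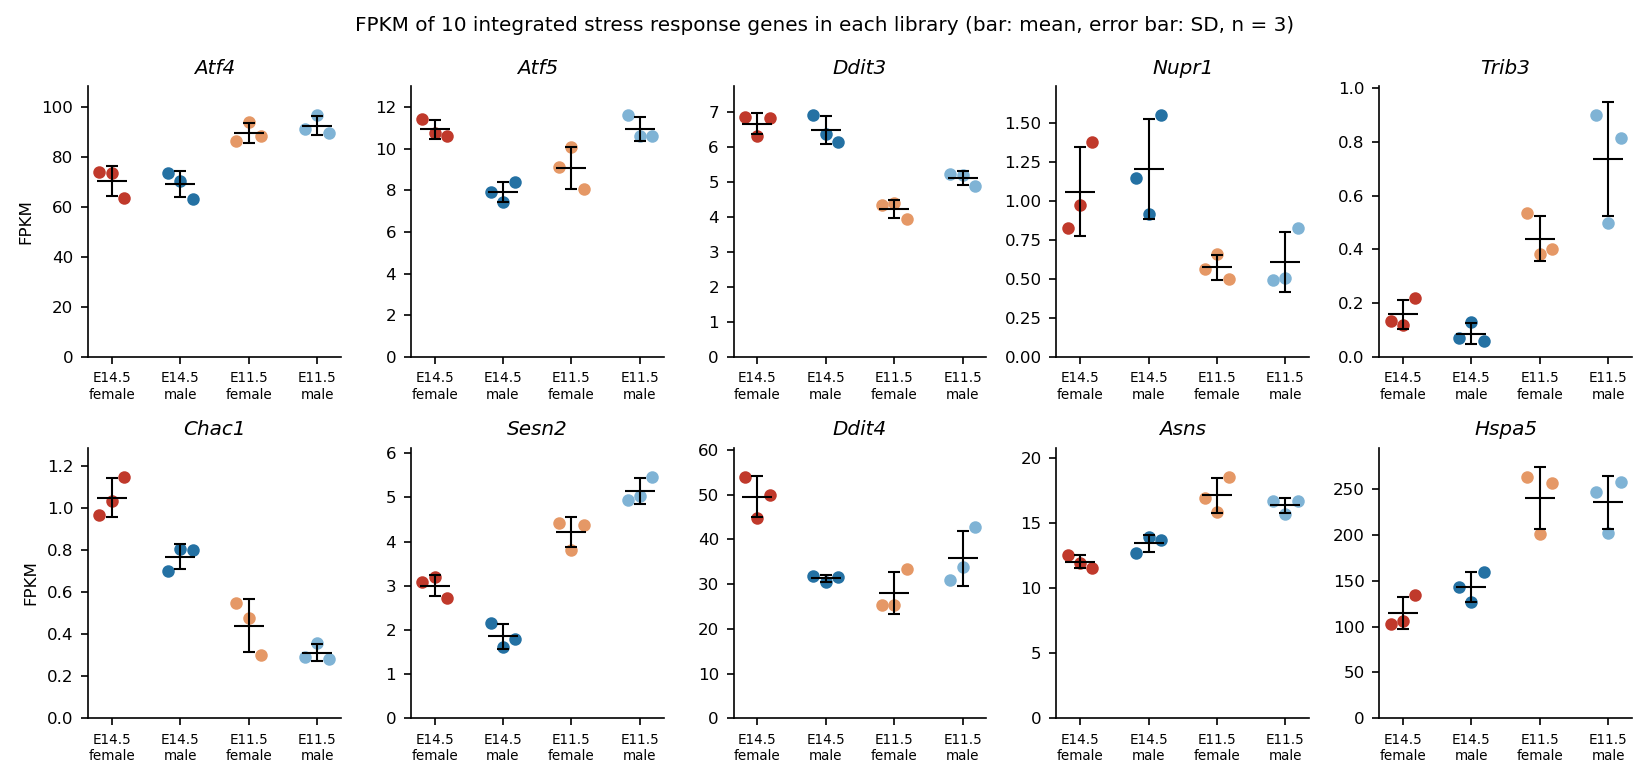
FPKM of the 10 genes in each of the 12 libraries, one panel per gene with its own linear axis from 0, with the mean (horizontal bar) and SD of the 3 libraries of each group. Hspa5, Sesn2, Trib3, Atf4 and Asns sit lower at E14.5 than at E11.5, Chac1 and Ddit3 sit higher, and Nupr1, Atf5 and Ddit4 overlap between the ages on this scale.

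Between the ages, 3 of the 10 genes were higher at E14.5 than at E11.5 (Chac1, Nupr1 and Ddit3) and 3 were lower (Trib3, Sesn2 and Hspa5), in edgeR's quasi-likelihood test. A call required an adjusted p under 0.05 and a log2 fold change beyond 0.5 in either direction. Over all 14454 genes tested, 24.4% were called higher and 19% lower, so a call between the ages was common among genes in general. The median log2 fold change was -0.19 over the 10 genes and -0.01 over all genes. In 8 of the 10 genes the 6 libraries of E14.5 did not overlap the 6 of E11.5 in CPM, as in 55.5% of all genes tested. Trib3 was tested only because of its counts at E11.5 and Nupr1 only because of its counts at E14.5, since neither reached a mean count of 16 in a group of the other age.

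Of the transcription factors, Atf4 (chr15:80255184-80257545, plus strand in GRCm38), the central activator of the response, had 146, 148 and 130 CPM in E14.5 females and 151, 145 and 132 CPM in E14.5 males. At E11.5 it had 171, 185 and 178 CPM in females and 177, 186 and 175 CPM in males. Every E14.5 library lay below every E11.5 library, and at both ages the sexes overlapped. The log2 fold change was -0.33 ± 0.04 (SE), with an adjusted p of 3.89e-06 in edgeR's quasi-likelihood test, which is under the fold limit for a call. It was -0.33 in females and -0.33 in males, and when transcript GC content and length were adjusted for -0.30 in females and -0.14 in males.

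Atf5 (chr7:44812256-44816658, minus strand), a related factor whose translation is raised in the same way and which is known in rodent neural progenitors to hold back differentiation, had 26.0, 24.9 and 25.0 CPM in E14.5 females and 18.7, 17.7 and 20.1 CPM in E14.5 males. It had 20.8, 22.9 and 18.7 CPM in E11.5 females and 26.1, 23.5 and 24.0 CPM in E11.5 males. The E14.5 females and the E11.5 males were thus the high libraries, and the ages overlapped. Over both sexes the log2 fold change was -0.05 ± 0.06 (adjusted p = 0.437, edgeR). Within females it was 0.28 and within males -0.38. After the GC and length adjustment it was 0.02 in females (adjusted p = 0.793, edgeR) and -0.17 in males (adjusted p = 0.0696, edgeR).

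Ddit3 (chr10:127290793-127296288, plus strand), which encodes Chop, a factor induced by Atf4 and linked to cell death under lasting stress, had 6.82, 6.39 and 7.03 CPM in E14.5 females and 7.15, 6.63 and 6.43 CPM in E14.5 males. The E11.5 libraries had 4.30, 4.39 and 4.005 CPM in females and 5.14, 5.05 and 4.83 CPM in males, all below those of E14.5. Ddit3 was 1.46-fold higher at E14.5, with a log2 fold change of 0.55 ± 0.07 (adjusted p = 5.30e-06, edgeR), and was not called when log2 FPKM values were tested with limma. The within-sex log2 fold changes were 0.67 in females and 0.42 in males, and with the GC and length adjustment 0.77 in females and 0.74 in males.

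Nupr1 (chr7:126623246-126625470, minus strand), a small stress-induced chromatin protein, was counted with few reads, 15, 20 and 23 in E14.5 females and 15, 15 and 24 in E14.5 males. E11.5 females had 9, 10 and 8 reads and E11.5 males 8, 9 and 14. After scaling, E14.5 libraries had 0.592 to 1.17 CPM and E11.5 libraries 0.346 to 0.588 CPM, so the highest E11.5 library lay just below the lowest of E14.5. Its log2 fold change was 0.97 ± 0.24 (adjusted p = 0.00152, edgeR), but it was tested only because of its counts at E14.5. It lost its call on log2(FPKM + 1), a scale that shrinks low values.

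Of the targets of Atf4 and Chop, Trib3 (chr2:152337425-152344060, minus strand), a pseudokinase that binds Atf4 and dampens its activity, had the largest log2 fold change of the 10 genes. Its counts were 8, 8 and 12 in E14.5 females and 3, 7 and 3 in E14.5 males, against 28, 19 and 21 in E11.5 females and 48, 29 and 45 in E11.5 males. No library of E14.5 reached the level of any library of E11.5 (0.146 to 0.534 CPM at E14.5, 0.897 to 2.08 CPM at E11.5). Trib3 was 0.217-fold as high at E14.5 as at E11.5, a log2 fold change of -2.21 ± 0.26 (adjusted p = 1.70e-06, edgeR), but it was tested only because of its counts at E11.5. The log2 fold change was -1.47 in females and -2.94 in males.

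Chac1 (chr2:119351242-119354327, plus strand), an enzyme that breaks down glutathione and that is also known in the mouse cortex as Botch, an inhibitor of Notch receptor maturation, changed in the other direction. It was counted 44, 53 and 48 times in E14.5 females and 23, 33 and 31 times in E14.5 males, against 22, 18 and 12 times in E11.5 females and 12, 16 and 12 times in E11.5 males. In CPM the E14.5 libraries (1.31 to 2.13) lay above all E11.5 libraries (0.504 to 0.986). Chac1 was 2.50-fold higher at E14.5, with a log2 fold change of 1.32 ± 0.17 (adjusted p = 3.22e-06, edgeR), 1.26 in females and 1.38 in males. As for Nupr1 and Trib3, the call was lost on log2(FPKM + 1).

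Sesn2 (chr4:132492807-132510456, minus strand), a sestrin that senses leucine and restrains mTORC1, had 9.35, 9.88 and 8.58 CPM in E14.5 females and 6.81, 5.12 and 5.70 CPM in E14.5 males. E11.5 females had 13.4, 11.6 and 13.5 CPM and E11.5 males 14.7, 14.8 and 16.5 CPM. All E14.5 libraries were lower than all E11.5 libraries, and the E14.5 males were the lowest. The log2 fold change was -0.93 ± 0.08 (adjusted p = 3.07e-08, edgeR), and it was -0.47 in females and -1.39 in males. After the GC and length adjustment it was -0.88 in females, which passed the fold limit (adjusted p = 5.19e-06, edgeR), and -1.31 in males.

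Ddit4 (chr10:59949675-59951770, minus strand), which encodes Redd1, another inhibitor of mTORC1 that is also induced by low oxygen and glucocorticoids, had 104, 87.7 and 99.5 CPM in E14.5 females and 63.7, 61.3 and 64.1 CPM in E14.5 males. E11.5 females had 48.7, 48.5 and 65.4 CPM and E11.5 males 58.6, 63.4 and 81.6 CPM. Only the E14.5 females stood apart, and the other 3 groups overlapped. Over both sexes the log2 fold change was 0.37 ± 0.09 (adjusted p = 0.00317, edgeR), under the fold limit. Within females it was 0.84 (adjusted p = 9.91e-05, edgeR) and within males -0.11 (adjusted p = 0.481, edgeR). The value within males was 0.13 with the GC and length adjustment, where that within females was 0.70, and it was 0.05 without E11.5 male replicate 3. In a list of 14 other genes of hypoxia and glycolysis, of which 13 could be tested, 9 were called lower at E14.5 and 1 higher, and the sum of the list was 1356 to 1703 CPM at E14.5 and 2699 to 3503 CPM at E11.5.

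Asns (chr6:7675165-7693209, minus strand), asparagine synthetase, had 28.0, 27.2 and 26.7 CPM in E14.5 females and 29.4, 32.5 and 32.3 CPM in E14.5 males. It had 37.9, 35.4 and 42.2 CPM in E11.5 females and 36.7, 34.2 and 37.1 CPM in E11.5 males. The ages did not overlap, and the log2 fold change was -0.35 ± 0.05 (adjusted p = 1.10e-05, edgeR), under the fold limit.

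Hspa5 (chr2:34772090-34776529, plus strand), the chaperone BiP, had 308, 322 and 417 CPM in E14.5 females and 444, 397 and 501 CPM in E14.5 males. E11.5 females had 789, 600 and 778 CPM and E11.5 males 725, 588 and 763 CPM. All E14.5 libraries were lower than all E11.5 libraries, and in both E11.5 groups replicate 2 was the lowest. Its log2 fold change was -0.84 ± 0.10 (adjusted p = 1.27e-05, edgeR), -1.05 in females and -0.63 in males. With the GC and length adjusted for, the same 6 of the 10 genes were called between the ages, with log2 fold changes of 0.76 for Ddit3, 1.40 for Chac1, 1.20 for Nupr1, -2.20 for Trib3, -1.10 for Sesn2 and -0.77 for Hspa5.

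**Figure D2:**
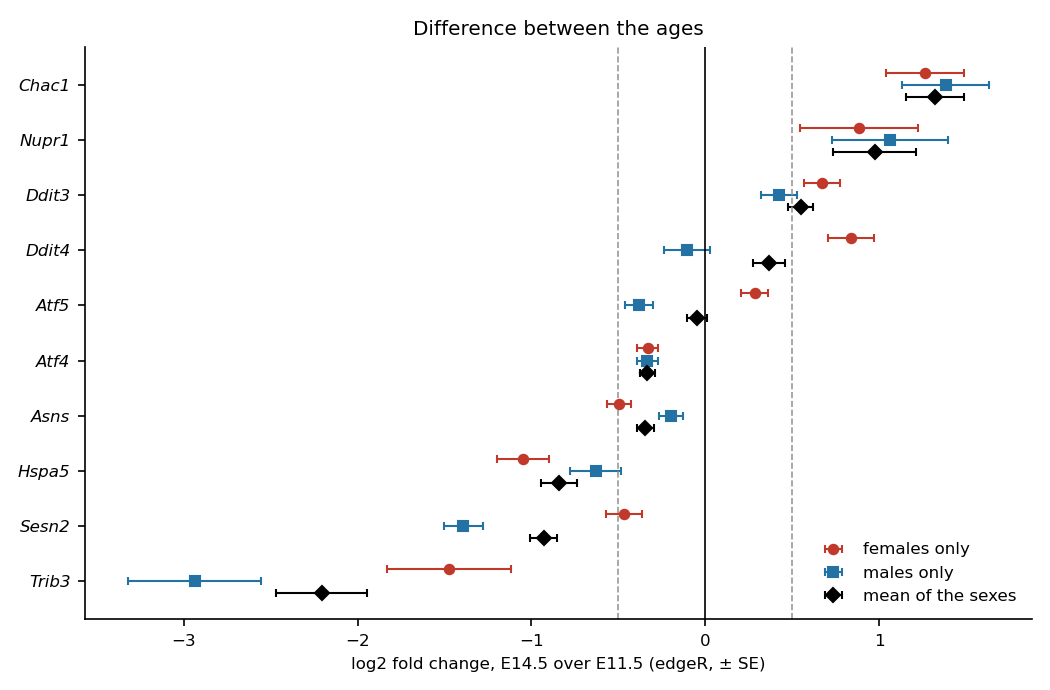
Log2 fold changes of E14.5 over E11.5 with their SE for the 10 genes in females, in males and as the mean of the sexes, with dashed lines at an absolute log2 fold change of 0.5. Chac1 (1.32) and Trib3 (-2.21) are the extremes, and for Atf5 and Ddit4 the female and male points, from the counts without the GC and length adjustment, lie on opposite sides of 0. With that adjustment Ddit4 is at 0.70 in females and 0.13 in males, and Atf5 at 0.02 in females and -0.17 in males.

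The study was made to compare the sexes. At E14.5, Sesn2 and Ddit4 were higher in females than in males, and none of the 10 genes was called lower. Over all genes tested 5.98% were called higher and 5.62% lower. Sesn2 averaged 9.27 ± 0.65 CPM in females and 5.88 ± 0.86 CPM in males (SD, n = 3 each), a log2 ratio of 0.67 ± 0.12 (adjusted p = 0.000310, edgeR). Ddit4 averaged 97.1 ± 8.45 CPM in females and 63.0 ± 1.55 CPM in males (SD, n = 3 each), a log2 ratio of 0.62 ± 0.13 (adjusted p = 0.00231, edgeR). Atf5 was next, with 25.3 ± 0.615 CPM in females and 18.8 ± 1.22 CPM in males (SD, n = 3 each) and a log2 ratio of 0.43 ± 0.08 (adjusted p = 0.000596, edgeR), under the fold limit. Asns went the other way, with a log2 ratio of -0.20 ± 0.07 (adjusted p = 0.0311, edgeR). Hspa5 had a log2 ratio of -0.36 ± 0.15 (adjusted p = 0.0688, edgeR). With the replicate number as a block its ratio was -0.36 (adjusted p = 5.82e-08, edgeR), under the fold limit. Within the first E14.5 litter this block matched single females with single males by number alone, which is arbitrary. Its p therefore cannot be read as one that accounts for the mother only. With the mother as the block, 2 of the 10 genes were called higher and 0 lower. Without replicate 3 of the females Hspa5 was called at -0.51 (adjusted p = 0.0180, edgeR). That fit kept the male of the second mother but no female of hers. At an unadjusted p under 0.05 edgeR held 3 genes higher and 2 lower, where 51.8% of all genes had such a p, and DESeq2 called the same number of genes, 2. The libraries of the sexes did not overlap for 5 of the 10 genes (Atf5, Chac1, Sesn2 and Ddit4 higher and Asns lower in females), nor for 49.7% of all genes.

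These ratios at E14.5 followed the GC content of the transcripts, as did those of the genes in general. The 5 genes with the highest GC content, Chac1 (57.4%), Ddit4 (57.9%), Trib3 (58.2%), Sesn2 (58.7%) and Atf5 (60.2%), all had log2 ratios of 0.40 or more. Of these 5, Trib3 (0.76 ± 0.49, adjusted p = 0.229, edgeR) and Chac1 (0.40 ± 0.21, adjusted p = 0.127, edgeR) had an adjusted p above 0.05. The 2 genes with the lowest GC content, Hspa5 (47.3%) and Asns (48.7%), had ratios below 0. The 3 in between, Atf4, Nupr1 and Ddit3, had ratios of -0.01, -0.23 and 0.00. All 3 lay below the median of 0.17 over the tested genes with 52.3% to 56.1% GC, which include them. Over all genes tested with a known GC content, the median log2 ratio of female to male was -0.30 in the 2881 genes of lowest GC content (31.9% to 44.6%) and 0.37 in the 2880 genes of highest (56.1% to 73.2%). At E11.5 these medians were 0.08 and -0.11. With the GC and length adjustment the E14.5 log2 ratios were 0.30 for Sesn2 (adjusted p = 0.0956, edgeR), 0.32 for Ddit4 (adjusted p = 0.106, edgeR) and 0.06 for Atf5 (adjusted p = 0.643, edgeR). None of the 10 genes was then called in either direction, while 0.844% of all genes were called higher and 1.94% lower. Atf4 alone of the 10 had an adjusted p under 0.05 (0.0338, edgeR), at a log2 ratio of -0.16, under the fold limit. An unadjusted p under 0.05 was found for 3 of the 10, as for 34.8% of all genes. With this adjustment and a block for the replicate number together, the ratios of Sesn2 and Ddit4 were 0.30 (adjusted p = 0.0295, edgeR) and 0.32 (adjusted p = 3.56e-07, edgeR), again under the fold limit. In that fit Hspa5 (-0.24, adjusted p = 2.46e-05, edgeR), Atf4 (-0.16, adjusted p = 0.000182, edgeR) and Asns (-0.14, adjusted p = 0.0454, edgeR) were lower in females, also under the fold limit. Over all 14454 genes, 3319 were higher and 2382 lower in that fit at an adjusted p under 0.05. Such a p was thus common among genes in general. That fit also holds the arbitrary matching by number described above, so its p cannot be read as accounting for the mother only. The summed level of intermediate progenitor markers was 730 to 781 CPM in E14.5 females and 646 to 680 CPM in E14.5 males, with 1 of 6 genes called higher and none after the adjustment. Microglia and macrophage markers summed to 55.1 to 78.9 CPM in E14.5 females and 76.5 to 103.9 CPM in E14.5 males, with 2 of 8 genes called lower and 1 after the adjustment. Of the radial glia markers 2 of 10 were called higher and none after the adjustment (2444 to 2851 CPM in females and 2434 to 2729 CPM in males). Ventral telencephalon markers summed to 813 to 971 CPM in females and 760 to 845 CPM in males, with 2 of 9 called higher, and after the adjustment 1 lower. Of the endothelial markers 1 of 8 of the mesenchyme and pericyte markers 1 of 9 and of the diencephalon and eye markers 1 of 6 were called lower, and none after the adjustment. The part of these markers in the sex ratios was not tested.

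**Figure D3:**
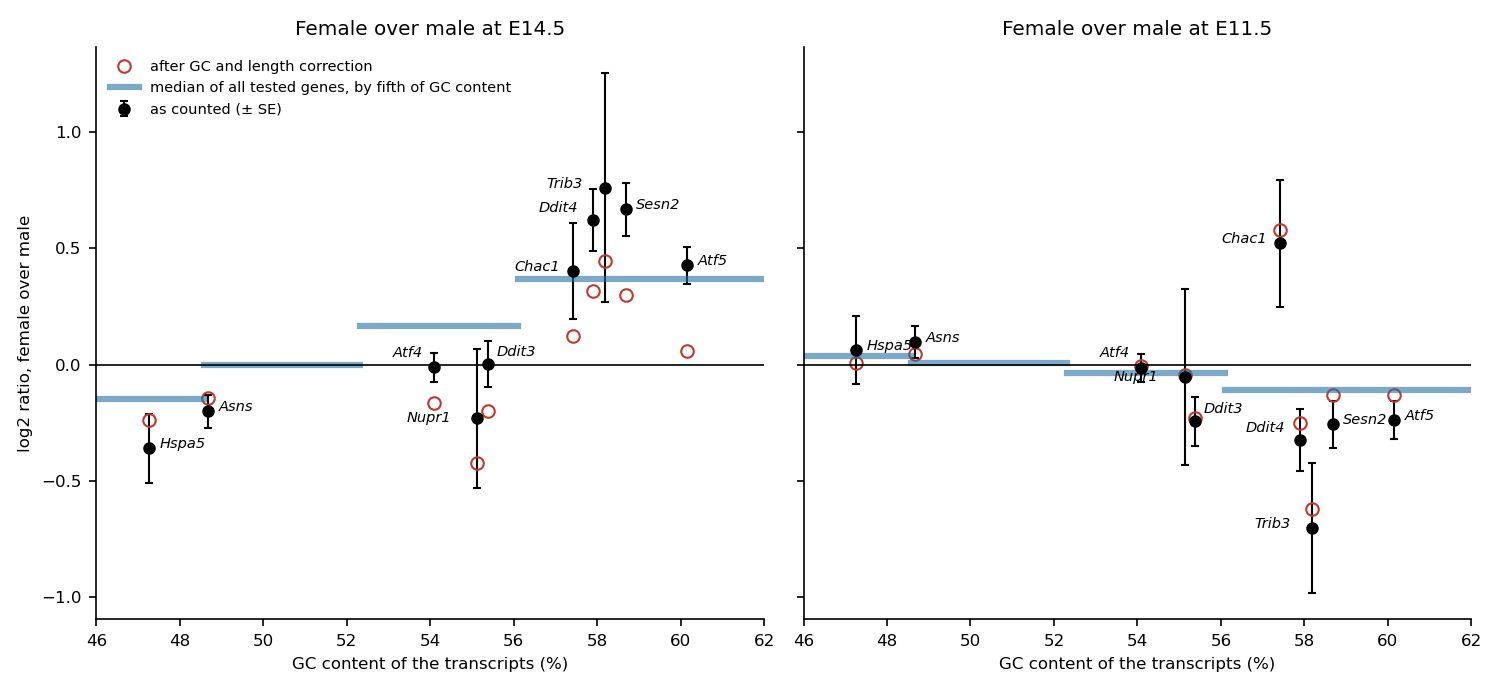
Log2 ratio of female to male against the GC content of the transcripts for the 10 genes at E14.5 (left) and at E11.5 (right), as counted with SE (filled points) and with the GC and length adjustment (open points). Bars give the median of all genes tested per bin of GC content. Of the 5 bins, that of lowest GC content (31.9% to 44.6%) lies outside the axis and is not drawn. At E14.5 the 5 genes above 57% GC lie between 0.40 and 0.76 and move toward 0 with the adjustment, and at E11.5 4 of these 5 lie below 0.

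At E11.5 none of the 10 genes was called between the sexes, against 0.374% of all genes tested. At an unadjusted p under 0.05, edgeR's quasi-likelihood test held 5 genes, all lower in females, where 18.2% of all genes had such a p. DESeq2 held 3 of the 10, against 16.4% of all genes, and called none. The 5 were Trib3, with a log2 ratio of -0.70 ± 0.28, Ddit4 with -0.32 ± 0.13, Sesn2 with -0.26 ± 0.10, Ddit3 with -0.24 ± 0.11 and Atf5 with -0.24 ± 0.08. With the GC and length adjustment these log2 ratios were -0.62 for Trib3, -0.25 for Ddit4, -0.13 for Sesn2, -0.23 for Ddit3 and -0.13 for Atf5. For Ddit3, Atf5 and Sesn2 every female library lay below every male library. Over all genes, 29.2% had no overlap in either direction. With the replicate number as a block, which by the sample list stands for the mother at this age, Trib3 was called at -0.71 (adjusted p = 0.0454, edgeR). The count over all genes then went to 174 (1.2%), against 54 without the block.

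The sex difference itself changed between the ages for 4 of the 10 genes by the interaction of sex and age. Toward females changed Ddit4 (0.95 ± 0.19, adjusted p = 0.00200), Sesn2 (0.92 ± 0.15, adjusted p = 0.000336) and Atf5 (0.67 ± 0.11, adjusted p = 0.000392), all log2 ratios at E14.5 minus those at E11.5 in edgeR's quasi-likelihood test. Toward males changed Asns (-0.30 ± 0.10, adjusted p = 0.0262, edgeR). Over all genes 20.6% changed toward females and 18.5% toward males at the same threshold, an adjusted p under 0.05. The interaction of Asns was not called without E11.5 male replicate 2, E11.5 female replicate 3 or E14.5 male replicate 2, with an adjusted p of up to 0.0746. Trib3 had the largest interaction, 1.46 ± 0.57 (adjusted p = 0.0535, edgeR). With the replicate block Trib3 (1.48, adjusted p = 0.0236, edgeR) and Hspa5 (-0.42, adjusted p = 1.46e-06, edgeR) were called too. In that fit 3945 of all 14454 genes changed toward females and 3697 toward males. With the GC and length adjustment none of the 4 was called, with interactions of 0.57 for Ddit4, 0.43 for Sesn2, 0.19 for Atf5 and -0.19 for Asns. Over all genes 1033 then changed toward females and 694 toward males. With the adjustment and the block together Ddit4 (0.57, adjusted p = 2.58e-08, edgeR), Sesn2 (0.43, adjusted p = 0.0211, edgeR), Hspa5 (-0.25, adjusted p = 0.00109, edgeR) and Atf4 (-0.16, adjusted p = 0.00832, edgeR) were called. Over all genes 2304 changed toward females and 1629 toward males in this last fit. Both fits with the replicate block hold the arbitrary matching by number at E14.5, which limits their p in the same way. With the mother as the block and no adjustment, 4 of the 10 genes changed toward females and 2 toward males.

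Within groups the 10 genes varied to different degrees. The SD of log2 CPM around the group means was 0.066 for Ddit3, 0.081 for Atf4, 0.083 for Asns and 0.097 for Atf5, below the median of 0.106 over all genes tested. It was above that median for the others, 0.138 for Sesn2, 0.188 for Ddit4, 0.208 for Hspa5, 0.23 for Chac1, 0.321 for Nupr1 and 0.385 for Trib3, and the last 3 are the genes with the fewest reads. Hspa5 had the highest FPKM of the 10, and its deviations had the same sign in all embryos of each mother. At E14.5 replicate 3, from the second mother, deviated by 0.27 in the female and 0.17 in the male on the log2 scale, while replicates 1 and 2 lay between -0.17 and 0.00 of their group means. At E11.5 replicate 2 was low in both sexes, by -0.26 in the female and -0.23 in the male, while replicates 1 and 3 deviated by 0.08 to 0.15. Other genes of the endoplasmic reticulum moved in the same libraries. Of 23 chaperone and unfolded protein response genes, 20 lay below the group mean in E11.5 female replicate 2 and 23 in E11.5 male replicate 2, but only 3 in E14.5 female replicate 3 and 5 in E14.5 male replicate 3. Over all genes tested, the deviations of female and male correlated by 0.13 for E11.5 replicate 2 and by 0.56 for E14.5 replicate 3. Whether these 23 genes moved more than genes in general was not tested. Over the 12 libraries the deviations of Hspa5 and Atf4 had a Pearson correlation of -0.84, those of Ddit3 and Asns of -0.72 and those of Nupr1 and Hspa5 of 0.59. These correlations are descriptions over 12 libraries, from 5 mothers by the sample list, that share their scaling. They were the lowest 2 and the highest of all pairs.

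**Figure D4:**
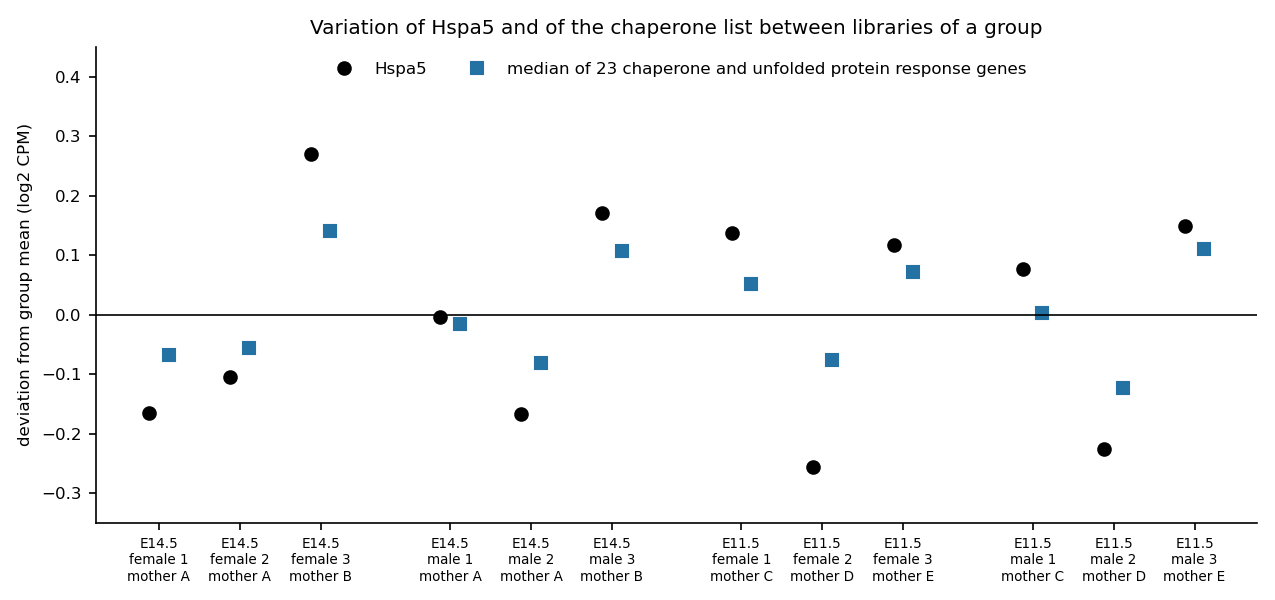
Deviation of log2 CPM from the group mean for Hspa5 (circles) and the median deviation of 23 chaperone and unfolded protein response genes (squares) in each library, with the mother of each embryo as a letter. Hspa5 is high in both embryos of mother B (0.27 and 0.17) and low in both of mother D (-0.26 and -0.23), and the median of the 23 genes lies on the same side of 0 in these 4 libraries.

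The genes around the 10 were taken from lists by role, and their calls between the ages are given beside the 24.4% higher and 19% lower over all genes. Of 10 genes for the eIF2 kinases, the subunits of the eIF2 phosphatase and their regulators, none was called higher and 3 were called lower at E14.5. These were Eif2ak2, the kinase PKR that senses viral RNA (log2 fold change -0.89, adjusted p = 2.75e-06, edgeR), Ppp1r15b, the constitutive phosphatase subunit (-0.59, adjusted p = 2.26e-09, edgeR), and Nck1, an adaptor (-0.55, adjusted p = 4.67e-08, edgeR). Of the other 3 kinases, Eif2ak3 (PERK), which responds to the endoplasmic reticulum, had a log2 fold change of 0.45, Eif2ak4 (GCN2), which responds to lack of amino acids, of -0.36, and Eif2ak1 (HRI) of -0.01, all short of a call. After the GC and length adjustment Eif2ak4 was called lower (-0.51, adjusted p = 6.15e-09, edgeR) and Nck1 was short of the fold limit (-0.48). Of 8 subunits of eIF2 and its exchange factor eIF2B, 2 were called lower, Eif2s1 (-0.61, adjusted p = 2.56e-09, edgeR), the subunit that is phosphorylated, and Eif2s2 (-0.63, adjusted p = 4.33e-09, edgeR). The X-linked subunit Eif2s3x was called higher in females at E11.5, with 515 ± 15 CPM in females and 326 ± 7.57 CPM in males (SD, n = 3 each). At E14.5 it had 374 ± 6.41 CPM in females and 278 ± 9.83 CPM in males (SD, n = 3 each). That log2 ratio was 0.43 (adjusted p = 3.79e-06, edgeR), under the fold limit, and it was called at 0.67 with the GC and length adjustment (adjusted p = 1.23e-07, edgeR).

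Of 10 bZIP partners of Atf4 and Chop, 2 were called lower at E14.5. Atf3, a factor induced by Atf4, averaged 0.894 CPM in E14.5 females and 0.714 CPM in E14.5 males, against 1.95 CPM in E11.5 females and 2.12 CPM in E11.5 males (log2 fold change -1.34, adjusted p = 2.20e-06, edgeR). Batf3 had a log2 fold change of -1.09 (adjusted p = 0.00104, edgeR) and was tested only because of its counts at E11.5. Cebpb was called lower in females than in males at E14.5 (-2.44, adjusted p = 0.000613, edgeR), on mean counts of 4.0 in females and 17.7 in males, and was tested only because of its counts in these males.

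Of 20 genes of amino acid synthesis and transport that Atf4 induces, 4 were called higher and 6 lower at E14.5, and the median log2 fold change was 0.06. The 2 with the smallest adjusted p among those that rose were Aldh1l2, a mitochondrial folate enzyme (1.66, adjusted p = 5.34e-11, edgeR), and Cbs, which makes cystathionine (2.29, adjusted p = 4.87e-10, edgeR). Mthfd2, another mitochondrial folate enzyme (-0.95, adjusted p = 2.27e-09, edgeR), and Cth, which makes cysteine from cystathionine (-1.18, adjusted p = 3.70e-09, edgeR), fell. Between the sexes at E14.5, Slc7a5 (0.60), Shmt2 (0.58) and Pck2 (0.55) were called higher and Slc7a11 (-0.71) lower in females, on the log2 scale, and none of the 20 was called with the GC and length adjustment.

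Of 12 other known targets of Atf4 or Chop, 3 were called higher and 4 lower at E14.5. Eif4ebp1, a repressor of cap-dependent translation, fell by 1.74 on the log2 scale (adjusted p = 7.26e-11, edgeR) and Ero1l, an oxidase of the endoplasmic reticulum, fell by 0.62 (adjusted p = 3.63e-09, edgeR). Sqstm1, the autophagy receptor p62, rose by 0.59 (adjusted p = 2.39e-09, edgeR) and Ndrg1 rose by 4.07 (adjusted p = 9.44e-09, edgeR). Gdf15 and Fgf21, secreted factors induced in stressed tissues, were outside the 12, since both had too few counts to be tested.

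Of the 23 chaperone and unfolded protein response genes, none was called higher and 6 were called lower at E14.5, as Hspa5 was, and the median log2 fold change was -0.37. The 4 with the smallest adjusted p were P4hb (-0.63), Pdia3 (-0.78) and Pdia6 (-0.52), all disulfide isomerases, and Hsp90b1 (-0.77), the chaperone Grp94, with adjusted p from 3.23e-10 to 2.05e-07 in edgeR. Of the 12 fits that each left out 1 library, 3 did not call Pdia6, nor was it called with the GC and length adjustment (-0.42). At E14.5 Canx was called lower in females (-0.53) and Atf6b (0.57) and Syvn1 (0.62) higher, on the log2 scale, and with the GC and length adjustment none of the 23 was.

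Of 9 paralogs of the 10 genes that could be tested, 2 were called higher and 2 lower at E14.5. Sesn1, the p53-linked sestrin, rose by 1.06 on the log2 scale (adjusted p = 1.12e-10, edgeR), with 61.0 CPM in E14.5 females and 65.8 CPM in E14.5 males, against 31.7 CPM in E11.5 females and 29.1 CPM in E11.5 males. Its paralog Sesn2 fell, as given above. Trib2 rose by 0.71 (adjusted p = 1.55e-10, edgeR), while Trib1 fell by 0.53 (adjusted p = 7.68e-06, edgeR) and Trib3 fell by 2.21. Hspa9, the mitochondrial Hsp70, fell by 0.63 (adjusted p = 5.30e-10, edgeR).

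**Figure D5:**
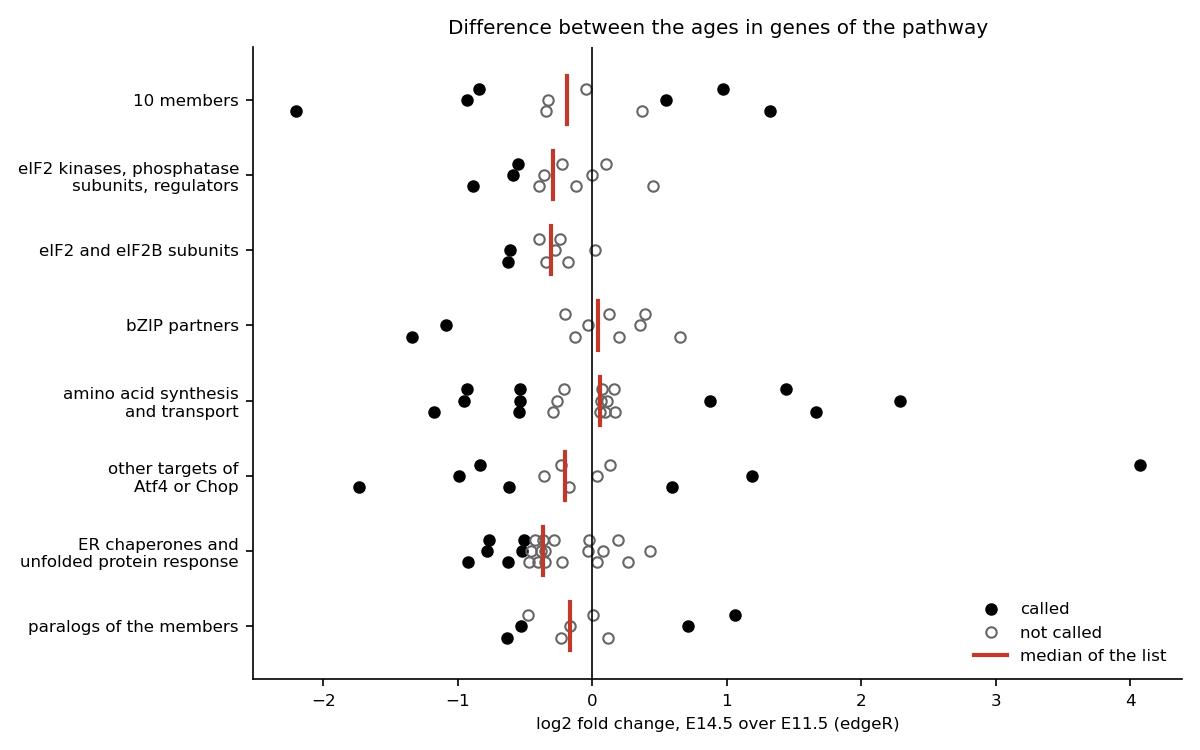
Log2 fold change of E14.5 over E11.5 for every tested gene of the 10 described and of the lists around them, with called genes filled, other genes open and the median of each list as a bar. The kinase, eIF2, bZIP partner and chaperone lists hold called genes only on the lower side (3, 2, 2 and 6), and the amino acid list reaches both ways (4 higher and 6 lower).

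Of 13 p53 targets 4 were called higher and none lower at E14.5, and the sum of the list was 666 to 767 CPM at E14.5 and 533 to 587 CPM at E11.5. Of 11 tested immediate early and heat shock genes none was called higher and 2 were called lower at E14.5, and at E14.5 3 were called higher in females, with sums of 572 to 588 CPM in females and 500 to 512 CPM in males. With the GC and length adjustment none of the 11 was called between the sexes.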

How the data were processed

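Poly(A) RNA of single telencephalons was sequenced as stranded paired-end libraries. The authors aligned the reads with STAR 2.6.0c to GRCm38 (mm10) and counted them with Genedata Profiler Genome. The deposited table gives per gene and library an estimated count, not normalized (82.7% are whole numbers), and an FPKM value, which the authors derived from the count and the transcript length (checked within 1%). The treatment of reads that fit more than 1 gene, and the use of strand, are not given in the sources used here. Ddit3 and Atf5 have no whole count in any library.

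Counts were rounded and tested in edgeR 4.0.16 (R 4.3.3; TMM, robust quasi-likelihood) with the 4 groups fitted jointly (8 residual degrees of freedom). A gene was tested where some group had a mean count of 16 or more (14454 genes), and p was adjusted by Benjamini-Hochberg over them. Calls needed an adjusted p under 0.05 with a log2 fold change beyond 0.5 either way, and the interaction only the adjusted p. The GC and length adjustment fitted a loess surface (span 0.5) of GC content and length per library as offsets. GC content was known for 25905 genes (98.9%), all 10 described included, and the adjustment would also take away a real difference that tracks GC content. Simulated data were used to check the fit.

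Same-numbered embryos at E11.5 share a mother by the study's sample list, and at E14.5 the deviations of same-numbered libraries correlated by 0.21, 0.27 and 0.56 (0.07, 0.13 and 0.23 at E11.5). Differently numbered E14.5 libraries correlated by 0.17 and 0.27 where they shared the mother and by -0.42 to -0.30 where they did not. The number was used as a block in an alternative, and the mother in another for the sex differences and their change only. At E14.5 the number also splits embryos of 1 mother, and between the ages it joins embryos of different mothers. Other alternatives were DESeq2 1.42.0, limma 3.58.1 on log2(FPKM + 1) and log2(FPKM + 0.1), other normalizations, count minimums and thresholds, and each library left out. Named were the 10 genes, up to 4 called genes per list with the smallest adjusted p between the ages, and genes called between the sexes where a list had under 5. Eif2ak1, Eif2ak3, Eif2ak4, Gdf15 and Fgf21 were named after their values were seen. The members and lists were chosen with earlier results of these data known. Embryos are separate animals, but those of 1 mother are not independent. Figures used matplotlib 3.10.9.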

Additional observations from a re-analysis of the deposited data

Results flagged for a closer look

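For 4 of the 10 genes the sex difference was not the same at both ages by edgeR's test of the sex by age interaction. Over all genes tested, 20.6% changed toward females and 18.5% toward males, so such a change was common among genes in general. The log2 ratio of female to male at E14.5 minus that at E11.5 was 0.9458 for Ddit4, 0.9244 for Sesn2, 0.6654 for Atf5 and -0.2984 for Asns. The first 3 are among the 2880 tested genes of highest GC content, and none of the 4 was called with the GC and length adjustment. With 3 libraries in each group, single libraries were not tested for being far from the others.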

How the results depend on the processing

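Among the 10 genes, 3 were called higher and 3 lower at E14.5. The higher count was 0 with limma on log2(FPKM + 1), 1 at a mean count of at least 50, where Trib3, Chac1 and Nupr1 were not tested, and 1 at a log2 fold change above 1. The lower count was 5 at the adjusted p alone and 1 at a log2 fold change above 1. Within females, where 3613 of all 14454 genes were called higher and 2831 lower, 4 of the 10 were called higher and 2 lower. The higher count was 2 at a mean count of at least 50, 1 at a log2 fold change above 1 and 3 to 4 with single libraries left out, and the lower count was 4 with the upper quartile, 1 with limma on log2(FPKM + 1), 1 at a mean count of at least 50, 5 at the adjusted p alone and 2 to 4 with single libraries left out (4 without E11.5 female replicate 2). Within males, where 3563 of all 14454 genes were called higher and 2943 lower, 2 of the 10 were called higher and 3 lower. The higher count was 0 with limma on log2(FPKM + 1), 0 at a mean count of at least 50 and 1 to 2 with single libraries left out (1 without E14.5 male replicate 3), and the lower count was 6 at the adjusted p alone. Between the sexes at E14.5, the 2 higher became 1 with limma on log2(FPKM + 1), 0 with the GC and length adjustment, 0 with that adjustment and the replicate block and 0 at a log2 fold change above 1. The 0 lower became 1 at the adjusted p alone, and 0 to 1 with single libraries left out (1 without E14.5 female replicate 3). At E11.5 the 0 lower became 1 with the replicate block and 1 with the litter as a block. For the change of the sex difference, the 3 toward females became 5 and 5 with limma on either scale, 0 with the GC and length adjustment, 4 with the replicate block, 4 with the litter as a block, 2 with the block and the adjustment, and 3 to 4 with single libraries left out. The 1 toward males became 0 and 0 with limma, 0 with the GC and length adjustment, 2 with the replicate block, 2 with the block and the adjustment, 2 with the litter as a block, and 0 to 2 with single libraries left out. The causes were not tested. Apart from Trib3 at E11.5 and the changes of Trib3 and Hspa5, the replicate block on its own changed no call of the 10 genes. For the age differences this block joined same-numbered embryos of both ages, which had different mothers. It could therefore not account for the mothers there.

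Of single genes, 41 values changed sign against the reported fit, 38 of them for sex differences or their change, and all but 1 of the 41 were short of a call. For Ddit3 at E14.5 the log2 ratio was -0.00789 with DESeq2 size factors, -0.01973 with the upper quartile, -0.00799 with the DESeq2 test, -0.00219 at the count minimum of 50, -0.1973 with the GC and length adjustment, -0.1979 with it and the replicate block, and -0.0295 to 0.04592 with single libraries left out. For Atf4 at E14.5 it was 0.02527 and 0.02559 with limma (pseudocounts 1 and 0.1), with a range of -0.06609 to 0.04392 without single libraries. The change of Atf4 was -0.00492 with DESeq2 size factors, -0.02027 with the upper quartile, -0.00474 with the DESeq2 test, -0.00385 at the count minimum of 50, -0.161 with the GC and length adjustment and -0.161 with it and the replicate block (called), with a range of -0.05279 to 0.05724 without single libraries. The change of Chac1 was 0.08005 and 0.03429 with limma and ranged over -0.3287 to 0.06984. Without single libraries the ranges were -0.4595 to 0.00867 for Nupr1 at E14.5, -0.04327 to 0.01502 for Atf4, -0.1812 to 0.2365 for Nupr1 and -0.0431 to 0.1786 for Hspa5 at E11.5, and -0.4666 to 0.06124 for the change of Nupr1. No age difference over both sexes or within females changed sign. Within males that of Ddit4 was 0.1308 with the GC and length adjustment and 0.1407 with it and the replicate block, with a range of -0.2009 to 0.04694 without single libraries. Counts of 3 to 48 reads per library limit Trib3 and Nupr1, and of 12 to 53 Chac1.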
